A study of Mus musculus with 6 samples.

Results

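The RNA of 9 chemokine ligand genes, *Ccl3*, *Ccl4*, *Ccl5*, *Ccl6*, *Ccl9*, *Ccl17*, *Ccl22*, *Cxcl10* and *Cxcl16*, was examined in B cells driven to switch their antibody class to IgA, with and without HIF-1α. The 9 genes were taken by name from the 46983 genes of the expression table, and the rule used no expression value. All 9 were found, and 7 of them passed the filter on low values (a mean of at least 0.5 FPKM over the libraries), as 13312 genes did in all. *Ccl6* and *Ccl9* did not pass it.

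Splenic B cells, by the methods of the study sorted as follicular cells (CD21int CD23+), were cultured for 3 days, with TGF-β, IL-5 and BAFF, each at 10 ng/ml, added together with LPS at 5 μg/ml. The *Hif1a* KO group (3 libraries) came from mice with floxed *Hif1a* alleles and *Mb1*-cre, which is active from early in the B lineage and deletes the gene in that lineage. The WT group (3 libraries) came from littermates that were either *Hif1a* f/+ with cre or *Hif1a* f/f without cre, and it is not stated which kind each library was, so WT libraries may carry cre and 1 deleted allele. Both groups were on a C57BL/6 background and received the same stimuli, and there is no unstimulated culture among these libraries; the age of the mice and whether each library came from its own animal are not given, so the spread between libraries may be partly technical.

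Chemokines are small secreted proteins that attract leukocytes through G-protein-coupled receptors. They are named for the cysteines near the start of the mature protein, which are adjacent in the CC family and separated by 1 residue in the CXC family. Activated B cells are known to make the CC chemokines of T cell attraction, such as CCL22, CCL17, CCL3 and CCL4, while CXCL10 is best known as an interferon-induced product of many cell types and CXCL16 as a ligand that is first anchored in the membrane.

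The cysteine motif that names each family is shown first, because it places the members in their 2 families at the level of the gene itself. Each line, given for 8 of the 9 members, holds 30 bases of the coding sequence, 5′ to 3′, from the GENCODE vM21 transcript, with the codons of the paired cysteines in capitals; the 6 CC genes shown have them side by side and the 2 CXC genes have 1 codon between them.
Ccl22: gaagacagtatcTGCTGCcaggactacatc
Ccl17: gtaggccgagagTGCTGCctggattacttc
Ccl4: cctcccacttccTGCTGTttctcttacacc
Ccl5: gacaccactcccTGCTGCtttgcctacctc
Ccl6: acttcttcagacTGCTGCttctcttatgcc
Ccl9: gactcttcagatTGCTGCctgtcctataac
Cxcl10: acggtccgcTGCaacTGCatccatatcgat
Cxcl16: gctggaagtTGTtctTGTgatcgtaccatt
No member is a near-identical copy of another in its coding sequence. The coding sequences of *Ccl6* and *Ccl9* shared no run of identical bases longer than 25 bases, and those of every other pair none longer than 14 bases.

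The members fall into a few genomic groups (GRCm38, mm10). *Ccl5*, *Ccl9*, *Ccl6*, *Ccl3* and *Ccl4* lie in this order within 139 kb of chromosome 11, at chr11:83525778-83530518, chr11:83572919-83578636, chr11:83587882-83593087, chr11:83647844-83649355 and chr11:83662584-83664683. The only other gene annotated as protein-coding between the first and the last of them, *Rpl9-ps1*, did not exceed 0.0668 FPKM in any library. *Cxcl16*, at chr11:70453983-70459984, is 13.1 Mb away from this cluster. *Ccl22* (chr8:94745590-94751699) and *Ccl17* (chr8:94810453-94812036) are neighbours on chromosome 8 with 58.8 kb between them, and *Cx3cl1* (chr8:94772009-94782427) lies between them. *Cxcl10* is on chromosome 5, at chr5:92346638-92348889.

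The bases before the start of transcription are shown for 4 members that varied together across libraries, as the part of the gene where control sequences are often found. Of the 9 members, 6 had an entry in the RefSeq promoter table (GRCm38.p6), and *Ccl4*, *Ccl5* and *Cxcl16* had none. Each line ends at the base before the RefSeq start and reads 5′ to 3′ on the strand of the gene, with capitals for any match, on either strand, to the NF-kB consensus, the hypoxia response core (ACGTG or GCGTG), the interferon response motif (GAAA, any 2 bases, GAAA) or TATAA. The windows are chr8:94745434-94745589 for *Ccl22* (156 bases), chr8:94810203-94810452 for *Ccl17*, chr11:83649379-83649628 for *Ccl3* and chr5:92348890-92349139 for *Cxcl10* (250 bases each).
Ccl22: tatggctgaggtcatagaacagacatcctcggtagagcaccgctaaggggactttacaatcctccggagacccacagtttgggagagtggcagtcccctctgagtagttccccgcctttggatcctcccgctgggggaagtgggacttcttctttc
Ccl17: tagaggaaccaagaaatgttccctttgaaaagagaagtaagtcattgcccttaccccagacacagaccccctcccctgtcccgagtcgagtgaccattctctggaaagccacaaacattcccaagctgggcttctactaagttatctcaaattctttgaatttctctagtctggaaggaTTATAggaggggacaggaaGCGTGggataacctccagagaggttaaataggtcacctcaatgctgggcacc
Ccl3: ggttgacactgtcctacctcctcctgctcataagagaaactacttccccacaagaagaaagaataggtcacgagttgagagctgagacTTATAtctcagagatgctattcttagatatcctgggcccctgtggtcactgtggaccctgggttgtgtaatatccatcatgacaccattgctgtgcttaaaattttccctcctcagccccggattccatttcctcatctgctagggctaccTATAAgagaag
Cxcl10: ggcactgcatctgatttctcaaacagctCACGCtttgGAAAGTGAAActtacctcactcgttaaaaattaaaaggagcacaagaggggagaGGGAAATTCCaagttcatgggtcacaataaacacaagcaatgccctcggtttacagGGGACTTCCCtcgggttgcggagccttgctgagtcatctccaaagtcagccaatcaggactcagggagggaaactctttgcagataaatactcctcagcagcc
*Cxcl10* held matches to the NF-kB consensus at positions −159 to −150 and −103 to −94 from its start, an interferon response match at −213 to −204 and a hypoxia core at −222 to −218. *Ccl17* held a hypoxia core at −52 to −48 and TATAA at −71 to −67, and *Ccl3* held TATAA at −162 to −158 and at −11 to −7. The *Ccl3* window ends at chr11:83649379, upstream of the GENCODE start at chr11:83649355, so its positions hold for the RefSeq start only. None of these motifs was found in the windows of *Ccl22* and *Ccl6*. *Ccl9* held 1 NF-kB match, at −35 to −26, beside several TATAA matches. Among 32851 windows of RefSeq promoters, 3.9% held the NF-kB consensus, 38.6% the hypoxia core, 2.98% the interferon motif and 22.8% TATAA, so a hypoxia core in a window of this length is common.

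Depth and agreement between libraries were examined before the members. The libraries held 25.0 to 37.2 M reads, recovered from the FPKM values (FPKM scales the reads of a gene by its length and by the size of its library). *Hif1a* itself was between 36.5 and 49.8 FPKM in the WT libraries and between 45.6 and 52.8 FPKM in the KO libraries; a gene-level value also counts exons outside the floxed part, so it does not check the deletion. On the first principal component of all tested genes (54.7% of the variance), WT replicates 2 and 3 stood on one side and WT replicate 1 stood with the 3 KO libraries on the other. WT replicate 1 also stood apart in neutrophil RNA, with a summed level of 38.9 FPKM over 9 neutrophil markers against at most 0.606 in any other library. Because WT replicate 1 lies with the KO libraries, each limma fold change is given with and without it. A p without it is conditioned on this resemblance to the other group and is a description of how far the results rest on 1 library. No gene passed an adjusted p of 0.05 with all 6 libraries (limma, Benjamini-Hochberg; 0 of 13312 genes, 0%; 929 genes at an unadjusted p under 0.05), and 1251 genes passed it without WT replicate 1. Of these 1251, 766 were lower and 485 higher in KO. With all 6 libraries, 7708 of the 13312 genes had a lower mean in KO.

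The 6 tested chemokine genes other than *Cxcl10* had higher RNA levels in WT replicates 2 and 3 than in any of the other 4 libraries, as 30.5% of all genes did. WT replicate 1 was at or close to the KO level for each of them. With all 6 libraries no member passed the adjusted test, each with an adjusted p of 0.626 (limma). Without WT replicate 1 (5.75% of all genes called lower) the 6 members other than *Cxcl10* passed it, with log2 fold changes (KO minus WT) from −1.44 to −0.79. *Cxcl10* entered the test only through the libraries where it was high, and its call is not counted here, while leaving out any 1 of the other libraries called 0 of the members. In RNA from a whole culture, fewer cells making a chemokine and less of its RNA per cell cannot be told apart.

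*Ccl22*, which encodes a ligand of CCR4 on T helper and regulatory T cells, was by far the most abundant member. It measured 794.3, 2132 and 1772 FPKM in WT replicates 1, 2 and 3, and 790.9, 780.4 and 599.4 FPKM in KO replicates 1, 2 and 3. The KO libraries thus lay below all WT libraries, but WT replicate 1 and KO replicate 1 were only a few FPKM apart, whereas WT replicate 3 was 2.24-fold above KO replicate 1. The exact permutation test gave p = 0.1, the smallest that 3 against 3 libraries allow. The mean was 1566 ± 692 FPKM in WT and 723.6 ± 108 FPKM in KO (SD, n = 3 each). The log2 fold change was −1.01 (SE 0.35) with all libraries and −1.44 (SE 0.15; limma adjusted p = 0.00673) without WT replicate 1.

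Between 23509 and 86652 reads stood behind each value of *Ccl22*, so counting error is small beside the spread between libraries. Its RNA took 0.104%, 0.280% and 0.233% of all reads in WT replicates 1 to 3, and 0.104%, 0.103% and 0.0788% in the KO libraries. Ranked among all 46983 genes by FPKM, *Ccl22* stood at places 33 and 48 in WT replicates 2 and 3, at place 122 in WT replicate 1, and at places 119, 123 and 162 in the KO libraries. *Ccl22* alone made up 95.4% to 97.0% of the summed FPKM of the 9 members in every library. The length behind its FPKM is 1313 bases, the mean of its annotated transcripts, whereas the coding transcript has 2216 bases; per kilobase of the coding transcript its levels are 1.69-fold lower, from 355 to 1263 FPKM, and *Ccl22* is still first.

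*Ccl17*, whose product binds the same receptor as CCL22, was measured at a far lower level. It was at 3.82, 5.86 and 6.53 FPKM in the WT libraries and at 3.74, 3.12 and 2.68 FPKM in the KO libraries. The groups did not overlap, again with WT replicate 1 just above KO replicate 1, and the exact permutation test again gave p = 0.1. The log2 fold change was −0.60 (SE 0.19), and −0.79 (SE 0.13; limma adjusted p = 0.0220) without WT replicate 1. The values of *Ccl17* rest on 41 to 93 reads per library. The level of *Ccl22* was 208 to 364 times that of *Ccl17* in every library, with the highest ratio in WT replicate 2.

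**Figure D1:**
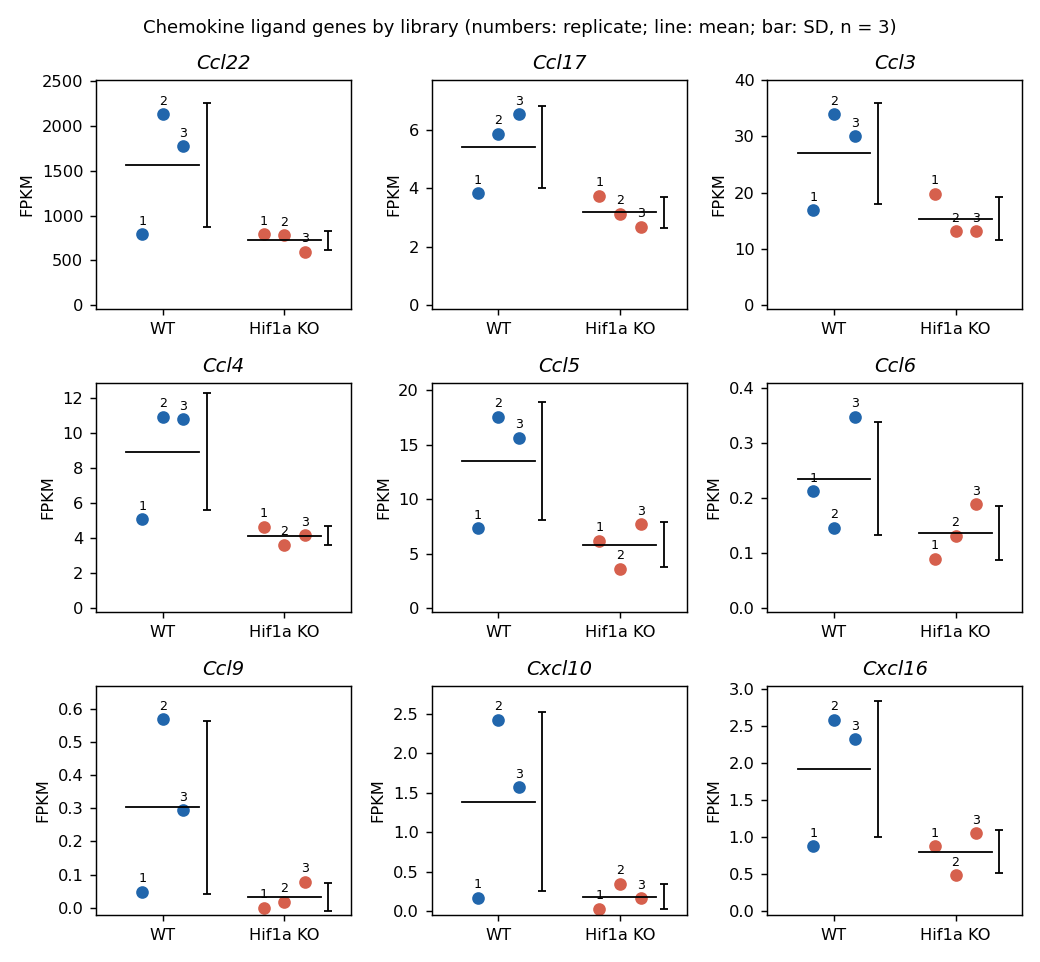
FPKM (vertical axis, linear, own scale per panel) of the 9 chemokine ligand genes in the 3 WT (blue) and 3 *Hif1a* KO (red) libraries, with replicate numbers beside the points, a line at the mean and a bar of ±SD. In all panels but that of *Ccl6*, WT replicates 2 and 3 sit above the other 4 libraries, and for *Ccl22* WT replicate 1 (794.3 FPKM) sits beside KO replicate 1 (790.9 FPKM).

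*Ccl3*, *Ccl4* and *Ccl5* encode inflammatory CC chemokines that attract T cells and monocytes, and CCL3 and CCL5 bind CCR1. *Ccl3* measured 16.9, 33.9 and 30.0 FPKM in the WT libraries and 19.8, 13.1 and 13.2 FPKM in the KO libraries. KO replicate 1 was above WT replicate 1, so the groups overlapped, and the exact permutation test gave p = 0.2. Its log2 fold change was −0.74 (SE 0.27), and −1.03 (SE 0.18; limma adjusted p = 0.0269) without WT replicate 1.

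*Ccl4*, the neighbour of *Ccl3* on the opposite strand, measured 5.09, 10.9 and 10.8 FPKM in the WT libraries. In the KO libraries it measured 4.66, 3.62 and 4.16 FPKM, all below the WT values (exact permutation p = 0.1). The log2 fold change was −0.89 (SE 0.26), and −1.21 (SE 0.11) without WT replicate 1, with the lowest adjusted p of the members (limma, 0.00456). The ratio of *Ccl3* to *Ccl4* FPKM varied 1.53-fold over the 6 libraries, from 2.78 to 3.32 in the WT libraries and from 3.16 to 4.25 in the KO libraries.

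*Ccl5*, also known for its expression in T and NK cells, measured 7.34, 17.6 and 15.7 FPKM in the WT libraries and 6.19, 3.64 and 7.70 FPKM in the KO libraries. The groups overlapped, since KO replicate 3 was above WT replicate 1 (exact permutation p = 0.2). *Ccl5* had the lowest log2 fold change of the members with all libraries, −1.05 (SE 0.35), and −1.41 (SE 0.26; limma adjusted p = 0.0285) without WT replicate 1. The KO libraries differed among themselves for this gene, and without KO replicate 2 its log2 fold change was −0.79. T cell markers other than *Lck* did not exceed 0.902 FPKM, and *Lck*, which some B cells also express, was at 131, 96.2 and 90.1 FPKM in the WT libraries and 133 to 137 FPKM in the KO libraries, so that it was lowest in the libraries where *Ccl5* was highest.

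*Ccl6* and *Ccl9* encode CCR1 ligands made chiefly by myeloid cells, and both were close to the limit of detection. *Ccl6* had 7, 4 and 8 reads in the WT libraries and 2, 4 and 5 reads in the KO libraries, or 0.0902 to 0.348 FPKM, with no separation of any library. *Ccl9* had 3, 30 and 13 reads in the WT libraries and 0, 1 and 4 reads in the KO libraries. The 0 in KO replicate 1 allows up to 0.0704 FPKM (3 reads, counting error only). *Ccl9* was thus detected mainly in WT replicates 2 and 3, which held 43 of its 46 WT reads, against 5 reads in the 3 KO libraries.

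*Cxcl10*, whose product attracts activated T cells through CXCR3, measured 0.171, 2.42 and 1.56 FPKM in the WT libraries. In the KO libraries it measured 0.0318, 0.348 and 0.160 FPKM. It passed the filter on low values only through WT replicates 2 and 3, with 94 and 51 reads, against 1 to 15 reads elsewhere. Its log2 fold change of FPKM + 1 was −0.89 (SE 0.38), and −1.34 (SE 0.19) without WT replicate 1, given without a p because the filter fixed that it had to differ. That scale understates the difference of a gene at this level, and with a pseudocount of 0.1 the log2 fold change was −2.07.

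*Cxcl16* measured 0.874, 2.58 and 2.32 FPKM in the WT libraries and 0.873, 0.481 and 1.05 FPKM in the KO libraries. WT replicate 1 and KO replicate 1 were at nearly the same level, from 61 and 41 reads, and the groups overlapped (exact permutation p = 0.2). The log2 fold change was −0.66 (SE 0.27), and −0.95 (SE 0.17; limma adjusted p = 0.0259) without WT replicate 1.

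The order of the levels, per length, was *Ccl22*, *Ccl3*, *Ccl5*, *Ccl4*, *Ccl17*, *Cxcl16*, *Cxcl10*, *Ccl6* and *Ccl9*, by the median over the 6 libraries. Down to *Cxcl10*, each gene was above the next in 6 of 6 libraries by the deposited FPKM. Per kilobase of the coding transcript, *Cxcl10* was above *Cxcl16* in WT replicate 2 (2.24 against 1.80 FPKM), so the order of this pair depends on the length used. Their ranges over the libraries overlapped except between *Ccl22* and *Ccl3* and between *Ccl17* and *Cxcl16*. *Cxcl10* was above *Ccl6* in 3 of 6 libraries, and *Ccl6* above *Ccl9* in 5 of 6, so the last 3 have no stable order. Without *Ccl22*, the summed level of the other 8 members was 34.4, 73.9 and 67.5 FPKM in the WT libraries and 35.4, 24.5 and 29.2 FPKM in the KO libraries. As for *Ccl22*, WT replicates 2 and 3 were the highest. Unlike for *Ccl22*, KO replicate 1 was above WT replicate 1, so the groups overlapped.

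The counts of members are set beside those of all genes tested as a description, since the members were chosen with earlier results of these data known. At an unadjusted p under 0.05, the 6 tested members other than *Cxcl10* were lower in KO (limma), against 4.5% of all genes tested. This count fell when any 1 library other than WT replicate 1 was left out. Of these 6 members, 1 (*Ccl4*) remained without WT replicate 3, and 2 without WT replicate 2 or without KO replicate 3. Without KO replicate 2, 3 remained, and without KO replicate 1, 5 did. The count over all genes also fell in these smaller fits, from 929 to between 241 and 632. The KO values lay below all WT values for 3 of the 7 (*Ccl22*, *Ccl17* and *Ccl4*), against 6.03% of all genes. Without WT replicate 1, these 6 were called lower, against 5.75% of all genes. WT replicates 2 and 3 were both above the other 4 libraries for the 6 members other than *Cxcl10*, and this was also so for 30.5% of all genes. For *Cxcl10* it was so as well, but the filter fixed this. WT replicate 1 lay within the range of the KO libraries for 4 of the 7, against 64.2% of all genes.

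The median log2 fold change of the 7 members was −0.89, with a range from −1.05 to −0.60, against −0.028 over all genes tested. Without WT replicate 1 it was −1.21. Without *Cxcl10* the median was −0.81, and −1.12 when WT replicate 1 was also left out. From the lowest log2 fold change upward, *Ccl5* stood at place 60, *Ccl22* at 68, *Cxcl10* at 96, *Ccl4* at 97, *Ccl3* at 135, *Cxcl16* at 190 and *Ccl17* at 234 of 13312 genes.

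**Figure D2:**
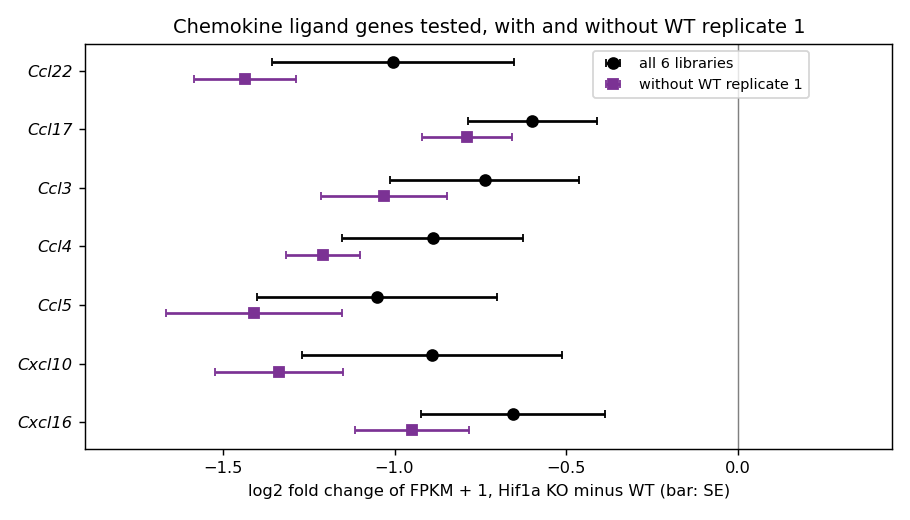
Log2 fold change of FPKM + 1, *Hif1a* KO minus WT (horizontal axis; bars, SE), of the 7 tested chemokine ligand genes with all 6 libraries (circles) and without WT replicate 1 (squares). All points lie below 0, and each moves further from 0 and has a shorter bar without WT replicate 1, as for *Ccl22* from −1.01 (SE 0.35) to −1.44 (SE 0.15).

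The members followed each other closely across libraries. Over the 21 pairs of tested members, Pearson's r of log2(FPKM + 1) was between 0.837 (*Ccl5* and *Cxcl10*) and 0.988 (*Ccl5* and *Cxcl16*), with a median of 0.919. The 6 points share the split between WT replicates 2 and 3 and the other libraries, so these values describe that split and are given without a p. *Ccl9* followed the tested members with an r from 0.797 to 0.965, whereas *Ccl6* did not exceed 0.530 with any member.

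Among 670 genes that vary across the 6 libraries by at least 1 on the log2(FPKM + 1) scale, those most like each member were sought by the same r. They were *Cox6b2*, *Adam8* and *Ddit4l* for *Ccl22*, *Firre*, *Nnat* and *Slco3a1* for *Ccl17*, and *Crip2*, *Gprin3* and *Kank3* for *Ccl3*. For *Ccl4* they were *Ak1*, *Nupr1* and *Tubb6*, for *Ccl5* *Cacnb3*, *Sh2d6* and *Mt1*, for *Cxcl10* *Atf3*, *Clec7a* and *Ido2*, and for *Cxcl16* *Nek6*, *Kit* and *Ccr10*. No gene appeared for more than 1 member, and r lay between 0.974 and 0.997. *Cox6b2*, for example, was at 11.6, 34.3 and 29.0 FPKM in the WT libraries and at 12.4, 11.3 and 9.39 FPKM in the KO libraries.

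Most other chemokine ligands were listed at or near 0 in these cultures. Of 30 further ligand genes, 12 were listed at 0 in all 6 libraries, including *Ccl19*, *Ccl20* and *Cxcl13*, and 3 passed the filter. *Cx3cl1*, which lies between *Ccl22* and *Ccl17* and encodes a membrane-bound chemokine, was at 40.8, 79.0 and 70.1 FPKM in the WT libraries and at 38.0, 47.4 and 32.1 FPKM in the KO libraries. Its log2 fold change was −0.64, and −0.93 (limma adjusted p = 0.0244) without WT replicate 1. *Ccl25* and *Ccl27a*, at 3.26 to 4.74 FPKM and 2.45 to 4.76 FPKM, had log2 fold changes of −0.13 and 0.03 and were not called in either fit.

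The receptors of the members did not follow the ligands. Of 7 cognate receptor genes, 5 passed the filter, 4 with a higher and 1 with a lower mean in KO, and 0 were called with or without WT replicate 1 (limma; 0 of the 5 at an unadjusted p under 0.05 with all libraries). *Ccr4*, the receptor for CCL22 and CCL17, was at 4.04, 1.80 and 2.00 FPKM in the WT libraries and at 3.73, 2.59 and 3.70 FPKM in the KO libraries, so here WT replicates 2 and 3 were the lowest of the 6. *Ccr1* was at 10.1 to 13.5 FPKM and *Cxcr3* at 0.635 to 1.33 FPKM, each with overlapping groups. *Ackr2*, a scavenger of inflammatory CC chemokines, was at 3.98 to 8.04 FPKM, and *Ccr3* and *Cxcr6* did not exceed 0.239 FPKM.

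Other chemokine receptors, of which 9 of 16 passed the filter, had a median log2 fold change of −0.05. The 3 most abundant were *Cxcr4* (166 to 252 FPKM) and *Cxcr5* (81.0 to 106 FPKM), which guide B cells within lymphoid tissue, and *Ccr6*. *Ccr6* was at 199, 146 and 155 FPKM in the WT libraries and at 194, 232 and 223 FPKM in the KO libraries, and it was the 1 receptor called higher in KO without WT replicate 1 (log2 fold change 0.52; limma adjusted p = 0.0244). In the same fit 2 were called lower, *Ccr10* and *Ackr3*. Over all 13312 tested genes, that fit called 485 higher and 766 lower.

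Of 4 tested genes that act on the chemokine proteins or their release, 0 were called with all libraries and 1 without WT replicate 1 (limma; 1 of the 4 at an unadjusted p under 0.05 with all libraries). *Dpp4*, which encodes a protease that trims the amino terminus of several chemokines including CCL22, was at 152, 94.2 and 99.2 FPKM in the WT libraries and at 162, 164 and 162 FPKM in the KO libraries. All KO values were above all WT values, and its log2 fold change was 0.53, and 0.74 (limma adjusted p = 0.00250) without WT replicate 1. In the fit without WT replicate 1, 485 of all 13312 tested genes were called higher. *Adam10*, whose product sheds CXCL16 and CX3CL1, was at 70.4 to 90.6 FPKM, and *Srgn*, a proteoglycan of secretory granules, at 244 to 303 FPKM; neither was called in either fit.

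Lists of genes induced by the signals that commonly induce chemokines were read beside the members. Of 16 tested NF-kB and LPS response genes, 13 had a lower mean in KO and 3 a higher one (median log2 fold change −0.27), and 8 were called lower without WT replicate 1. The 3 most abundant of them were *Nfkbia*, at 198, 272 and 271 FPKM in the WT libraries and 187 to 216 FPKM in the KO libraries, and *Nfkb1* and *Cd83*, which were not called in either fit. Of 16 interferon-stimulated genes, 15 had a lower mean in KO (median −0.38) and 2 were called lower without WT replicate 1. Beside both lists, 7708 of all 13312 tested genes had a lower mean in KO. Of all genes, 5.75% were called lower without WT replicate 1. In KO replicate 2 the summed level of the interferon-stimulated genes was 380 FPKM, against 238 and 284 FPKM in KO replicates 1 and 3. *Cxcl10* was also highest there among the KO libraries (15 reads against 1 and 6), whereas *Ccl5*, *Ccl4* and *Cxcl16* were lowest there.

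The cultures carried the markers of B cells. *Cd79a* and *Cd79b* were between 409.9 and 1203 FPKM in all 6 libraries. Of 10 B cell markers, 7 had a higher mean in KO and 2, *Cd79b* and *Ebf1*, were called higher without WT replicate 1. Over all 13312 tested genes, 485 were called higher in that fit. *Cd79b* was at 692, 432 and 410 FPKM in the WT libraries and at 589 to 734 FPKM in the KO libraries, so it was lowest in WT replicates 2 and 3, where the members were highest. The summed level of plasma cell markers was lower in WT replicates 2 and 3, at 939 and 893 FPKM, than in the other 4 libraries, at 999 to 1732 FPKM. Not every marker followed the sum. *Xbp1* did, at 363, 213 and 193 FPKM in the WT libraries and 233 to 474 FPKM in the KO libraries. *Mzb1* did not, since KO replicate 2 (494 FPKM) was below WT replicate 2 (510 FPKM). *Jchain*, which encodes the joining chain of IgA and IgM polymers, was at 182, 90.5 and 84.0 FPKM in the WT libraries and at 142 to 220 FPKM in the KO libraries.

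The sort for CD21int CD23+ cells would leave out macrophages and monocytes. Of their 7 tested markers, 6 were higher in WT replicates 2 and 3 than in the other 4 libraries, as 30.5% of all genes were. The summed level over 15 listed markers was 80.2, 201 and 135 FPKM in the WT libraries and 74.6 to 85.0 FPKM in the KO libraries. *Adgre1* was the largest part of this sum in every library. Of the 7 that passed the filter, 6 had a lower mean in KO and 4 were called lower without WT replicate 1. Over all 13312 tested genes these counts were 7708 and 766. *Lyz2* was at 6.18, 58.3 and 26.2 FPKM in the WT libraries and at no more than 3.70 FPKM in the KO libraries, while *Adgre1* differed less, at 59.8, 91.1 and 81.1 FPKM against 55.5 to 69.7 FPKM, and *Cd163* was listed at 0 throughout. *Mrc1* had a log2 fold change of 0.07, and *Csf1r* and *Itgam* did not exceed 0.754 and 0.236 FPKM. The part of macrophages and monocytes in the chemokine levels was not tested.

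Markers of other cells were read in the same way. The dendritic cell markers summed to 16.2 to 17.9 FPKM in the WT libraries, with WT replicate 1 among the others, and to 12.1 to 13.0 FPKM in the KO libraries. All 4 tested dendritic cell markers had a lower mean in KO, as 7708 of all 13312 tested genes did. Without WT replicate 1, 1 was called lower, against 5.75% of all genes. It was *Zbtb46*, at 0.914, 2.25 and 2.06 FPKM in the WT libraries and 0.939 to 0.990 FPKM in the KO libraries. Of the 4, it was the only 1 with WT replicates 2 and 3 above the rest. *Siglech*, at 5.36, 2.77 and 4.50 FPKM against 1.86 to 2.50 FPKM in KO, was highest in WT replicate 1, and *Flt3* and *Itgax* had overlapping groups. The part of dendritic cells in the chemokine levels was not tested. NK cell markers summed to 1.06 to 2.51 FPKM with *Gzma* at 0, and basophil and mast cell markers to at most 0.666 FPKM with *Cpa3*, *Cma1* and *Tpsb2* at 0. The neutrophil markers *S100a8*, *S100a9* and *Ngp*, at 10.9, 19.9 and 4.27 FPKM in WT replicate 1, were at or near 0 elsewhere.

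**Figure D3:**
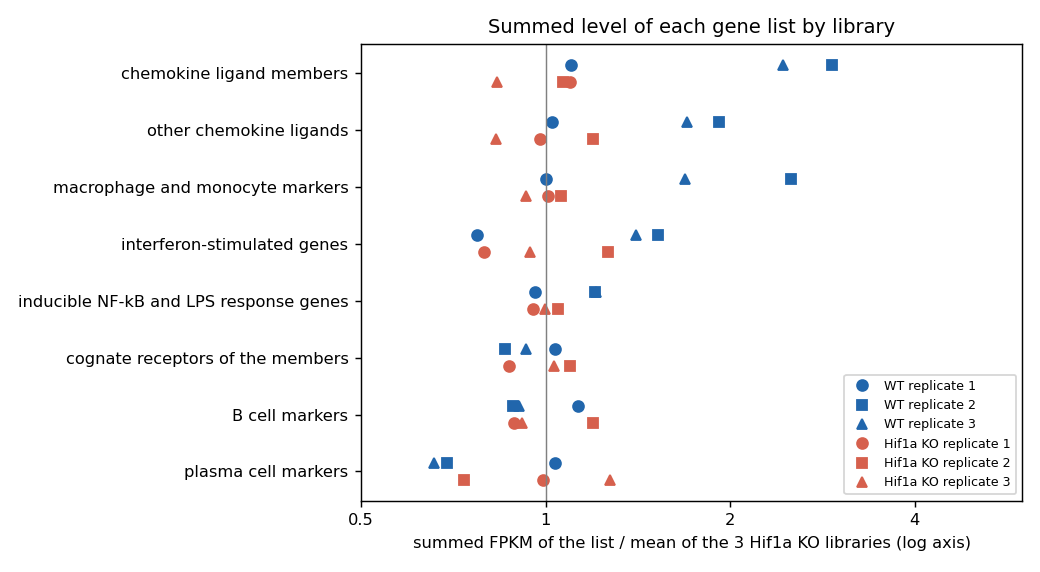
Summed FPKM of 8 gene lists in each library divided by the mean of the 3 *Hif1a* KO libraries (horizontal axis, log scale), with WT in blue, KO in red and the marker shape giving the replicate. WT replicates 2 and 3 stand at 2.93 and 2.44 for the chemokine ligand members and at 2.51 and 1.69 for macrophage and monocyte markers, while WT replicate 1 stands with the KO libraries for both.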

How the data were processed

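Bulk RNA-seq of 6 libraries, 3 WT and 3 *Hif1a* KO, was used, with groups and replicate numbers taken from the sample labels. The authors aligned reads to mm10 with TopHat, counted reads per gene with HTSeq and deposited FPKM values, 1 column per library; the annotation release, strand setting and treatment of multi-mapped reads are not given in the sources used here, so overlapping genes are uncertain. Of 46983 gene IDs, 46488 matched GENCODE vM21. FPKM values of 25716 of 25717 genes above 0 resolved into whole reads per library (94.3% to 94.9% of low values within 0.005 of a whole read), which gave the depth of 25.0 to 37.2 M reads and the read count of each value. The length behind FPKM was the mean length of a gene's annotated transcripts for 66.7% of genes with several transcripts.

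Genes with a mean of at least 0.5 FPKM (13312) were tested on log2(FPKM + 1) by limma 3.58.1 (R 4.3.3) with a trended prior and Benjamini-Hochberg adjustment, called at an adjusted p under 0.05. A fold change on this scale understates the change of low genes. Single members were also tested by a two-sided exact permutation test, which cannot go below 0.1 with 3 against 3 libraries. The alternatives were another pseudocount, other filters on low values, median-ratio scaling, quantile normalization, no trend, a replicate block, voom on the recovered reads, and leaving out each library. The members and gene lists were chosen with earlier results of these data known. Genes named from the lists were drawn from the 3 tested genes of each with the highest mean FPKM, cognate receptors and genes at 0. The 3 genes most like each member were also named. *Ccr10*, *Ackr3*, *Zbtb46*, *Ebf1*, *Ccl19*, *Ccl20*, *Cxcl13*, *Mrc1*, *Csf1r* and *Itgam* were named after their values were seen. A few genes of these lists and 1 coding window are not reported here.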

Additional observations from a re-analysis of the deposited data

How the results depend on the processing

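Under 14 alternatives, the log2 fold changes of the 7 tested members gave 95 values, and all 95 were negative. An adjusted p under 0.05 was reached in 7 of them, all without WT replicate 1 (0.00456 to 0.0285; 6 without *Cxcl10*, which the filter admitted only through WT replicates 2 and 3), and the lowest adjusted p in any other fit was 0.611. Leaving out 1 library at a time gave 0 to 7 members called and 0 to 1251 genes called over the whole table (1251 without WT replicate 1 and 1 without KO replicate 1). It gave 3 to 7 members whose groups did not overlap (7 without WT replicate 1 and 5 without KO replicate 3). Without WT replicate 1, at least 30.5% of all genes also had both WT libraries above the KO libraries, and *Cxcl10* was among the 7 through the filter. The share over all genes was not counted for the other smaller fits. The median log2 fold change of the members was −0.89 as reported, −1.21 without WT replicate 1, −0.56 without WT replicate 2, −1.02 with a pseudocount of 0.1, −0.95 with a mean of at least 5 FPKM, where 4 members remained, −0.86 with median-ratio scaling, −0.80 with quantile normalization and −1.01 with voom on recovered reads. A limma fit with the replicate block called 0 genes (694 at an unadjusted p under 0.05) and gave the same median of −0.89. The deviations of same-numbered libraries from their group means had r of −0.10, 0.14 and −0.28. With 3 libraries per group and WT replicate 1 apart from the other WT libraries, these values cannot decide whether the numbers pair the libraries. The labels do not state a pairing. *Ccl6* and *Ccl9* could be fitted only with all genes above 0, with log2 fold changes of −0.12 and −0.32. Depth limits *Ccl6*, *Ccl9* and, in 4 of the 6 libraries, *Cxcl10*.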
